A study of Homo sapiens with 12 samples.

Results

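Knockdown of CPT2 was compared with drug treatment against CPT1 in MDA231, the labels' name for MDA-MB-231, a long-established line of human triple-negative breast cancer cells. The comparison used 6 of the 12 single-colour expression arrays of the study: the 3 labelled shCPT-2, from cells carrying lentiviral pGIPZ hairpins against CPT2, and the 3 labelled scramble with ETX, from cells carrying a scrambled hairpin and treated with ETX. ETX is read here as etomoxir, an inhibitor of CPT1; the labels do not spell it out, and the sources used here give neither its dose nor its duration for the array cultures. The other 6 arrays, 3 of scramble cells without ETX and 3 of shCPT-1 cells, were used to show where each difference lay and to estimate the spread. All 4 groups carried a hairpin. The shCPT-2 and ETX groups differed in the hairpin as well as in the drug. Effects of the hairpin line and of lowered CPT2 therefore cannot be told apart. The labels do not say whether the hairpin cells were clones or pools, nor that replicate arrays stand for separate cultures; the p-values then measure only the spread between arrays, which may be technical.

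Long-chain fatty acids cross the inner mitochondrial membrane as carnitine esters. CPT1 on the outer membrane makes the ester, the carrier SLC25A20 takes it inside, and CPT2 on the inner face gives the fatty acid back to coenzyme A for beta-oxidation, so the drug and the hairpin act on the same route at its entry and at its exit. Fatty acids that are not oxidised can act as ligands of PPAR receptors, which switch on genes of fat transport and oxidation, and supply of nutrients or of folded protein is watched by the ATF4 and unfolded-protein programmes.

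The arrays had medians between 74.9 and 77.2 intensity units (6.25 on the log2 scale over all arrays), and 12886 genes passed the filter on dim signals. Over all probe sets except controls, before that filter, arrays of the same group correlated at 0.9954 to 0.9984. The shCPT-2 arrays correlated with ETX arrays at 0.9891 to 0.9916. The actin control probe sets gave a 3′ minus 5′ signal, a measure of RNA integrity or labelling, of 1.75 ± 0.06 (SD, n = 3, log2 units) in ETX and 1.68 ± 0.23 in shCPT-2. In scramble, the reference for the positions given below, it was 2.07 ± 0.27, and in shCPT-1 1.73 ± 0.23. The GAPDH probe sets gave 0.69 ± 0.10 in scramble, 0.49 ± 0.02 in ETX and 0.52 ± 0.10 in shCPT-2, so that scramble had the highest means in both. Of 10 markers of a mesenchymal breast cancer line 9 were measured, and VIM (14.54 in ETX, 14.51 in shCPT-2, mean log2 intensity), AXL (13.59, 13.54) and CD44 (12.63, 12.48) were far above the array median. Of 13 luminal markers with a probe set 9 passed the filter: EPCAM (9.02, 9.02), ERBB2 (9.07, 9.27) and ESR1 (7.03, 6.98) lay above the array median, and PGR (4.49, 4.21) and CDH1 (4.63, 4.62) under it. The endothelial PECAM1 (7.26, 6.87) and the fibroblast COL1A1 (8.04 in shCPT-2) lay above it and the leukocyte PTPRC (4.28, 4.39) under it. The summed intensity of the mesenchymal markers ran from 69179 to 70644 in ETX and from 64433 to 66825 in shCPT-2. For the 13 luminal markers with a probe set it was 10630 to 10865 in ETX and 11817 to 12655 in shCPT-2. For leukocyte (8 genes), endothelial (9) and fibroblast (9) markers the sums were, for ETX and shCPT-2 in turn, 360 to 401 and 374 to 385, 646 to 681 and 584 to 616, and 642 to 670 and 659 to 685. Sums of different lists rest on different probe sets and are not compared with each other. The part of these differences in the results below was not tested. In such bulk samples, fewer cells of a type and less RNA per cell cannot be told apart.

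Of the 12886 genes, 3203 were higher and 2693 lower in shCPT-2 than in ETX (limma, Benjamini-Hochberg adjusted p under 0.05, two-sided), which is 24.9% and 20.9% of the genes tested. Most differences were small: the median of all genes was 0.02 on the log2 scale and the median size among called genes was 0.32. A difference of at least 2-fold was rarer and uneven, with 63 genes higher (0.489%) and 206 lower (1.6%) in shCPT-2. Against the same scramble arrays, 21.9% of genes were called higher and 19.4% lower in ETX, and 25.6% and 20.5% in shCPT-2. Differences below are log2 values, shCPT-2 minus ETX, with the standard error (SE) of the fit and n = 3 arrays per group.

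The carnitine route itself separated the 2 groups. CPT2 had a log2 intensity of 7.69, 7.71 and 7.64 on the ETX arrays and 6.61, 6.22 and 6.39 on the shCPT-2 arrays. All shCPT-2 arrays lay under all ETX arrays, with a difference of -1.28 ± 0.10 (2.42-fold lower, adjusted p = 6.17e-07). The mean in scramble was 7.41, so the hairpin lowered its target and ETX cells stood 0.27 above scramble. CPT1A, the liver-type CPT1 isoform, read 10.90, 10.80 and 10.97 in ETX and 9.58, 9.60 and 9.48 in shCPT-2 (-1.34 ± 0.08, 2.53-fold lower, adjusted p = 5.35e-08). Scramble (9.78) lay near shCPT-2, so that the higher group for this gene was the drug-treated one. The other kept probe sets of CPT1A gave -1.10 and -0.72 and the second of CPT2 gave -1.47. SLC25A20, the carnitine-acylcarnitine carrier, read 9.25, 9.26 and 9.30 in ETX and 8.28, 8.15 and 8.36 in shCPT-2 (-1.01 ± 0.06), again with scramble (8.05) on the side of shCPT-2. CPT1C, the brain-type isoform, differed by 0.10 ± 0.07 and was not called (adjusted p = 0.282). CPT1B probe sets carry a second gene symbol and gave no tested value.

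In the carnitine shuttle and acyl-CoA activation list, 8 of 11 measured genes were lower in shCPT-2 and 0 were higher (list median -0.68). At an unadjusted p under 0.05 (limma) 0 were higher too. Over all genes the shares were 20.9% lower and 24.9% higher. The 8 include CPT2, which the hairpin targets, and CPT1A and SLC25A20, described above. Among the others were the organic cation and carnitine transporter SLC22A4 (-1.06 ± 0.07) and the acyl-CoA synthetases ACSL4 (-1.19 ± 0.13) and ACSL5 (-0.68 ± 0.06). The peroxisomal carnitine octanoyltransferase CROT (-0.32 ± 0.07) was another. ACSL1 (-0.11) and the carnitine acetyltransferase CRAT (-0.09) were not called. ACSL4 lies in a run of X-linked genes described further on, and the list without it had 7 of 10 lower. Among mitochondrial beta-oxidation genes 9 of 22 were lower (40.9%) and 4 higher (18.2%, under the share over all genes), with a median of -0.13. ETFDH, which passes electrons from the dehydrogenases to ubiquinone, read 8.19, 8.22 and 8.01 in ETX and 7.33, 7.02 and 7.39 in shCPT-2 (-0.89 ± 0.09), with scramble at 7.12. Its partner ETFA (-0.52 ± 0.11), the branched-chain dehydrogenase ACAD8 (-0.45 ± 0.05), HADH (-0.41 ± 0.05) and the very-long-chain dehydrogenase ACADVL (-0.41 ± 0.08) were lower too. ECHS1, the short-chain enoyl-CoA hydratase (0.44 ± 0.04), and ACADSB (0.64 ± 0.12) were higher. The trifunctional protein subunits HADHA (-0.11) and HADHB (0.04) and the medium-chain dehydrogenase ACADM (-0.17) were not called. The largest value on that list, ACAA2 (-1.52 ± 0.12), depends on the probe set: without probe sets that can cross-hybridise (suffix x, s or a) it was 0.15 and not called. Peroxisomal oxidation genes were 4 of 9 lower (44.4%) and 2 higher (median -0.13). The higher share, 22.2%, lay near that over all genes. The phytanic acid hydroxylase PHYH was at -0.70 ± 0.05, HSD17B4 at -0.40 ± 0.05, ACOX3 at -0.29 ± 0.06 and EHHADH at 0.33 ± 0.09. Without probe sets that can cross-hybridise ACOX3 was -0.52, and without the 4 least correlated arrays EHHADH was 0.21.

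Genes known as PPAR targets held the widest gap of the comparison. PDK4, the kinase that restrains pyruvate dehydrogenase, read 8.76, 9.16 and 8.66 in ETX and 3.98, 4.62 and 4.22 in shCPT-2. That is 24-fold lower (-4.59 ± 0.17, adjusted p = 1.25e-09), and the shCPT-2 values lie under the array median, where a fold is less certain. Scramble had 5.03 and shCPT-1 had 5.38, so ETX stood apart from all 3 other groups. ANGPTL4, a secreted inhibitor of lipoprotein lipase, read 9.50, 9.61 and 9.49 against 6.98, 6.70 and 6.69 (-2.74 ± 0.07, 6.69-fold lower). PLIN2, a coat protein of lipid droplets, read 12.53, 12.58 and 12.55 against 10.68, 10.58 and 10.69 (-1.90 ± 0.08), while scramble had 10.52. For these 3 genes the groups do not overlap, as held for 25.6% of all genes in the lower and 30.2% in the higher direction, and shCPT-2 differed from scramble by -0.75, -0.53 and 0.13. A second set on the same list had its gap on the other side. The fatty acid binding protein FABP5 (-1.87 ± 0.05) differed from scramble by 0.05 in ETX and by -1.81 in shCPT-2, and the lipase inhibitor G0S2 (-1.22 ± 0.04) had 0.15 and -1.07. The pantetheinase VNN1 (-1.45 ± 0.14) had 0.05 and -1.40. TXNIP, an inhibitor of glucose uptake, was the 1 member called higher (0.73 ± 0.04): ETX cells differed from scramble by -0.82. In all 8 of 19 measured members were lower, 1 was higher and 10 were not called (median -0.11). Over the processing alternatives the count of lower members ranged from 3 to 8. The 3 came without probe sets that can cross-hybridise, a setting in which members with no other probe set drop out. Promoters of this list were searched in the way described further on for other lists. The PPAR element DR1, in its strict form, was found in 0 of 14 list members with a promoter. It occurred in 0.0228% of all promoters and in 0.0479% of tested genes. With a form this rare, the search cannot decide whether PPAR receptors act on these genes.

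**Figure D1:**
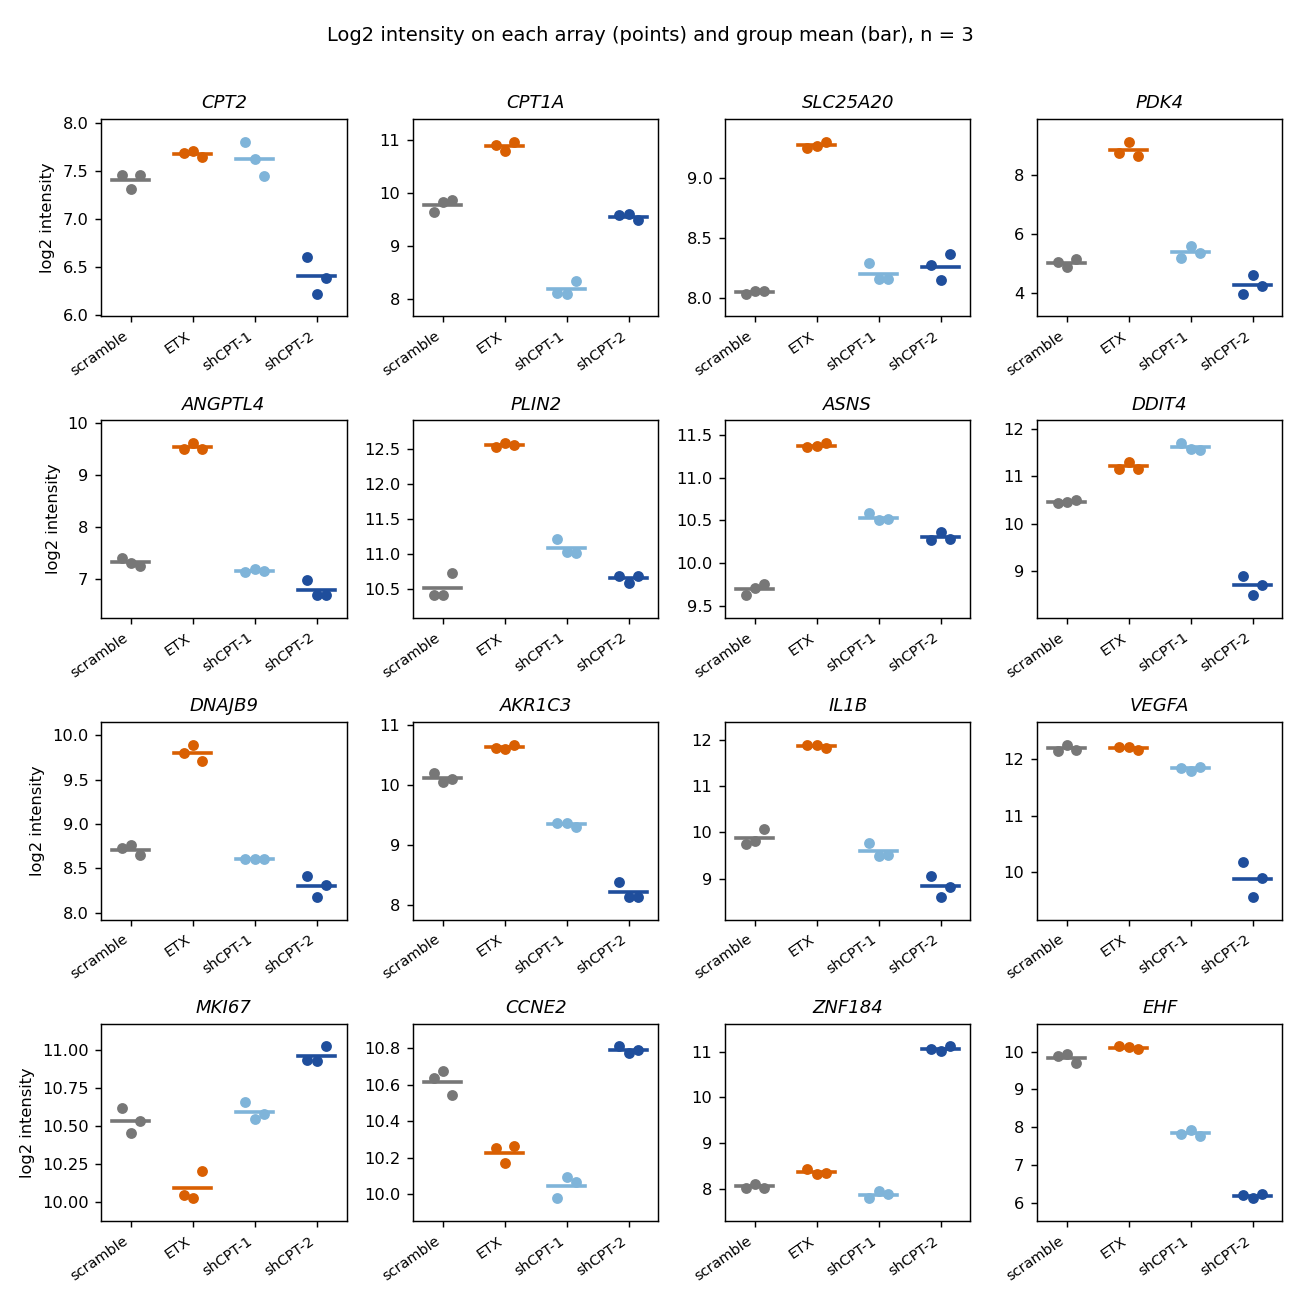
Log2 intensity of 16 genes on each of the 12 arrays (points) with the group mean (bar, n = 3); groups run along the horizontal axis and each panel has its own vertical scale. ETX stands apart for PDK4, ANGPTL4, PLIN2 and SLC25A20, while shCPT-2 stands apart for CPT2, VEGFA and ZNF184.

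Over all genes 24.9% were called higher and 20.9% lower, and the cholesterol list, with 17.6% and 23.5%, lay near those shares. In the lipid synthesis lists, 6 of 16 fatty acid synthesis genes were higher and 4 lower (median 0.04), and 3 of 17 cholesterol genes were higher and 4 lower (median 0.06). FASN, the fatty acid synthase, read 10.02, 10.01 and 10.08 in ETX and 10.71, 10.67 and 10.64 in shCPT-2 (0.64 ± 0.04), beside 10.63 in scramble. The acyltransferase GPAM (0.81 ± 0.08) and the carboxylase ACACA (0.30 ± 0.05) were higher, and the malic enzyme ME1 was lower (-0.43 ± 0.05). SREBF1, the regulator of lipid synthesis, was 1.05 ± 0.07 higher, or 0.62 as the mean of its probe sets, and lies in a chromosome 17 run described further on. Among cholesterol genes LSS (0.30 ± 0.06) and NSDHL (0.27 ± 0.05, or 0.15 as the mean of its probe sets) were higher, and STARD4 (-0.23 ± 0.05) and SC5D (-0.28 ± 0.07) lower.

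For the lists downstream of fatty acid entry, counts stand beside 24.9% higher and 20.9% lower over all genes. Glycolysis, with 23.8% lower, lay near the latter share, and 4.76% of its genes were higher. Of 29 TCA cycle and pyruvate entry genes 10 were lower and 4 higher (median -0.04). The pyruvate dehydrogenase kinases PDK1 (-0.52 ± 0.06) and PDK3 (-0.44 ± 0.05) and the complex subunit DLAT (-0.49 ± 0.07) were lower beside PDK4. The succinate dehydrogenase subunit SDHD was lower as well (-0.51 ± 0.06). Of 21 glycolysis genes 5 were lower and 1 higher (median -0.01), with PFKFB4 at -0.65 ± 0.05 (-0.34 as the mean of its probe sets), the glucose transporter SLC2A3 at -0.52 ± 0.09, the X-linked PGK1 at -0.61 ± 0.11 and hexokinase HK2 at 0.26 ± 0.04. Respiratory chain and ATP synthase genes were mostly not called, with 48 of 65 in that state, 8 higher and 9 lower (median -0.002). The higher count was 4 without shCPT-2 replicate 3, 5 without shCPT-2 replicate 1, ETX replicate 1 or ETX replicate 2, and 15 with array weights. COX4I1 was higher (0.43 ± 0.04), and COX7B (-0.57 ± 0.05, X-linked) and COX8A (-0.29 ± 0.06) were lower. NDUFV1 (-0.34 ± 0.06) was not called as the mean of its probe sets (-0.08).

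The ATF4 programme, which supplies amino acids and one-carbon units under stress, was lower throughout its called members: 23 of 30 measured genes were lower in shCPT-2, 0 were higher and 7 were not called (median -0.44; limma, 1 higher at an unadjusted p under 0.05). ASNS, asparagine synthetase, read 11.36, 11.37 and 11.40 in ETX and 10.28, 10.37 and 10.28 in shCPT-2 (-1.07 ± 0.05, 2.1-fold lower, adjusted p = 6.35e-09). Its scramble mean was 9.70, so both groups lay above scramble and ETX lay further. CTH, the cystathionine gamma-lyase, had the same order, with means of 8.07 in scramble, 9.07 in shCPT-2 and 10.14 in ETX. CHAC1, which breaks down glutathione, read 8.88, 8.77 and 8.77 against 7.26, 7.48 and 7.12 (-1.52 ± 0.08). ATF4 itself (-0.74 ± 0.06), the pseudokinase TRIB3 (-0.75 ± 0.05), the factor CEBPB (-1.09 ± 0.04) and DDIT3 (-0.52 ± 0.06) were lower. DDIT4, an inhibitor of mTORC1 signalling, differed in kind: it read 11.16, 11.31 and 11.16 in ETX and 8.89, 8.50 and 8.71 in shCPT-2 (-2.51 ± 0.08, 5.69-fold lower). Scramble (10.46) lay between them, 0.74 under ETX and 1.76 over shCPT-2. Over the list, the median was 0.69 above scramble in ETX and 0.10 above it in shCPT-2, beside medians of -0.013 and 0.0046 over all genes. PPP1R15A (0.15) and STC2 (0.05) were among those not called.

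Suppliers of the same programme followed it in part. Of 11 amino acid transporters 6 were lower and 3 higher (median -0.25). The higher share, 27.3%, lay near the 24.9% over all genes, of which 20.9% were lower. SLC7A11, the cystine importer, had means of 12.05 ± 0.04 (SD, n = 3) in ETX and 11.02 ± 0.05 in shCPT-2 with no overlap (-1.02 ± 0.05), and its partner subunit SLC3A2 was lower by -0.54 ± 0.06. The neutral amino acid carriers SLC1A4 (-0.85 ± 0.05) and SLC38A2 (-0.65 ± 0.05) were lower, and the cationic amino acid carrier SLC7A1 was higher (0.15), with 1 of its 4 probe sets called in each direction. Of 17 cytoplasmic aminoacyl-tRNA synthetases 9 were lower and 3 higher (median -0.17), with CARS1 at -0.54 ± 0.04, WARS1 at -0.51 ± 0.05, YARS1 at -0.47 ± 0.04 and GARS1 at -0.41 ± 0.04. YARS1 was -0.23 without probe sets that can cross-hybridise. Both lists stood above scramble in both groups, with medians of 0.43 (ETX) and 0.28 (shCPT-2) for the transporters and of 0.40 and 0.24 for the synthetases.

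ER chaperones and genes of the unfolded protein response, which answer misfolded protein in the secretory route, were lower in 18 of 22 measured members and higher in 0 (median -0.40; limma, 0 also at an unadjusted p under 0.05). DNAJB9, a co-chaperone of the ER lumen, read 9.80, 9.89 and 9.71 in ETX and 8.41, 8.18 and 8.32 in shCPT-2 (-1.50 ± 0.06, 2.83-fold lower). XBP1, the factor spliced by the sensor IRE1, read 9.80, 9.73 and 9.96 against 8.84, 8.61 and 8.83 (-1.07 ± 0.09), though 1 of its 2 kept probe sets was called. The abundant chaperone HSPA5 read 13.16, 13.20 and 13.16 against 12.79, 12.78 and 12.76 (-0.40 ± 0.05). For XBP1 and HSPA5 scramble (8.79 and 12.70) lay at the level of shCPT-2. HSP90B1 (-0.57 ± 0.11) was the other way round, with 10.78 in scramble, 0.07 under ETX and 0.50 over shCPT-2. ERO1B, an oxidase of the ER, was lower by -1.19 ± 0.07, HERPUD1 by -0.84 ± 0.05 (-0.47 as the mean of its probe sets) and CREB3L2 by -1.10 ± 0.04 (-0.38 without probe sets that can cross-hybridise). The list median was 0.33 above scramble in ETX and 0.06 below it in shCPT-2 (-0.06).

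Some promoters of these 2 lists hold the elements by which the programmes are known to be read. RefSeq promoters (GRCh38.p14, 250 bases before to 50 after the start) were searched on both strands for the amino acid response element TGATGNAA, bound by ATF4, and the ER stress element, CCAAT and CCACG separated by 9 bases. The first was found in 6 of 25 ATF4 list members with a promoter and in 3.62% of all 35116 promoters (2.89% of tested genes), and the second in 8 of 21 ER list members and in 0.0769% (0.144%). The 200 bases before the start are shown, 5′ to 3′ along the gene, for ASNS (chr7:97872409-97872608, minus strand), HSPA5 (chr9:125241344-125241543, minus), HSP90B1 (chr12:103930210-103930409, plus) and XBP1 (chr22:28800570-28800769, minus), with the matches in capitals.
ASNS: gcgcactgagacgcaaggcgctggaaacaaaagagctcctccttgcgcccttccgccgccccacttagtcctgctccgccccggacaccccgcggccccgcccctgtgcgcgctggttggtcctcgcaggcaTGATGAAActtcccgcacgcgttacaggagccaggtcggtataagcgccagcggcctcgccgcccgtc
HSPA5: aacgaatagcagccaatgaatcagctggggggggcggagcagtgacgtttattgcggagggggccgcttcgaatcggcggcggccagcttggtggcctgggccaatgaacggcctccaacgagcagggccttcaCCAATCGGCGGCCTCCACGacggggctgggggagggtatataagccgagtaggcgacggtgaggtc
HSP90B1: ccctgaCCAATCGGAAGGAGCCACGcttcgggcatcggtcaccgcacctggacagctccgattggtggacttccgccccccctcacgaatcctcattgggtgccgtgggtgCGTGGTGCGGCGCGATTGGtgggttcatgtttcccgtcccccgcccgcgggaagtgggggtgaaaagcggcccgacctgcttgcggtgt
XBP1: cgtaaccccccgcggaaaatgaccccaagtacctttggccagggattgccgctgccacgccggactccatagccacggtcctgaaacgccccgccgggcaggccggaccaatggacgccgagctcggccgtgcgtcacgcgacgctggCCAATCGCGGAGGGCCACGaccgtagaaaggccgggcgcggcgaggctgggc
The ASNS match ends 60 bases before the start, and that of HSPA5 ends 47 bases before it. HSP90B1 holds a match on each strand, so the second run of capitals reads as the complement.

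The NRF2 antioxidant list had 15 of 22 members lower and 1 higher in shCPT-2 (median -0.37). Over the alternatives 9 to 16 were lower, fewest without probe sets that can cross-hybridise, where some members drop out. Its largest values were the aldo-keto reductases, which reduce steroids and lipid aldehydes and are near-identical copies that can share probes. AKR1C3 read 10.61, 10.60 and 10.67 in ETX and 8.38, 8.14 and 8.15 in shCPT-2 (-2.40 ± 0.07, 5.29-fold lower, adjusted p = 1.43e-10), with 10.11 in scramble. AKR1C1 (-1.58 ± 0.07) and AKR1C2 (-1.68 ± 0.11) also lay on both sides of scramble. AKR1C1 differed from it by 0.89 in ETX and by -0.69 in shCPT-2, and AKR1C2 had means of 7.25 in scramble, 7.93 in ETX and 6.25 in shCPT-2. The glutathione synthesis genes GCLM (-0.69 ± 0.10) and GCLC (-0.57 ± 0.07), haem oxygenase HMOX1 (-0.66 ± 0.11), NQO1 (-0.60 ± 0.05) and thioredoxin reductase TXNRD1 (-0.55 ± 0.04) were lower by smaller amounts. NFE2L2, which encodes NRF2, was lower by -0.79 ± 0.18, and KEAP1, its inhibitor, was the 1 member called higher (0.18). The antioxidant element TGACNNNGC occurred in 5 of 17 list members with a promoter, in 13.3% of all promoters and in 19.4% of tested genes.

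Cell cycle genes ran the other way. Of 42 measured mitosis genes 34 were higher in shCPT-2 and 1 was lower (median 0.29), and of 39 DNA replication genes 27 were higher and 3 lower (median 0.24). MKI67, the proliferation marker Ki-67, read 10.05, 10.02 and 10.20 in ETX and 10.93, 10.93 and 11.02 in shCPT-2 (0.87 ± 0.06, 1.83-fold higher, adjusted p = 2.41e-07). Scramble had 10.53, between the groups, and 3 of the 4 kept probe sets were called. CDC20, an activator of the anaphase-promoting complex, read 12.04, 12.07 and 12.09 against 12.40, 12.48 and 12.46 (0.39 ± 0.04), and scramble (12.49) lay with shCPT-2. PLK1, a mitotic kinase, read 8.83, 8.79 and 8.90 against 9.50, 9.11 and 9.44 (0.50 ± 0.12), and scramble (8.79) lay with ETX. The kinetochore genes NDC80 (0.61 ± 0.06) and CENPE (0.46 ± 0.04) were higher, as was the kinase AURKA (0.50 ± 0.05). AURKB had the largest value on the list (1.32 ± 0.05) and lies in a chromosome 17 run, and without it 33 of 41 were higher. KIF4A, a chromokinesin on the X chromosome, was the 1 lower member (-0.38 ± 0.06).

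Among replication genes, cyclin E2 (CCNE2) read 10.25, 10.17 and 10.26 in ETX and 10.81, 10.78 and 10.79 in shCPT-2 (0.56 ± 0.05), and cyclin E1 (CCNE1) was 0.53 ± 0.05 higher. The polymerase subunit POLE (0.68 ± 0.08) and the ligase LIG1 (0.46 ± 0.05) were higher. GINS2, a helicase subunit, was 0.81 ± 0.04 higher but 0.06 and not called without probe sets that can cross-hybridise. The sliding clamp PCNA (-0.04) was not called, and MCM6 (-0.24), FEN1 (-0.18) and POLA2 (-0.36) were lower. List medians against scramble were -0.23 (mitosis) and -0.17 (replication) in ETX, and 0.01 and 0.05 in shCPT-2, so that most of the gap lay between ETX and scramble.

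Mitotic promoters are known for the cell cycle homology region, written TTTGAA, which is bound by the complex that times these genes. It occurred in 27 of 36 mitosis genes with a promoter, beside 15.2% of all promoters and 13.9% of tested genes. The 200 bases before the start are shown in the same way for MKI67 (chr10:128126424-128126623, minus), CDC20 (chr1:43358781-43358980, plus) and PLK1 (chr16:23678689-23678888, plus), with matches on either strand in capitals.
MKI67: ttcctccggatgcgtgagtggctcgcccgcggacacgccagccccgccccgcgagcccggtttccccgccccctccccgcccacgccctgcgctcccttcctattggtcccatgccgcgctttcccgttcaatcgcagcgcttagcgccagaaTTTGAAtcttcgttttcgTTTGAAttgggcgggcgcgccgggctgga
CDC20: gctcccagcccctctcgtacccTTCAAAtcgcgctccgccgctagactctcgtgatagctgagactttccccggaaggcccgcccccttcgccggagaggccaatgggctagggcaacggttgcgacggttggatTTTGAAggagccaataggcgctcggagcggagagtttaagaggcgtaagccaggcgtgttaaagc
PLK1: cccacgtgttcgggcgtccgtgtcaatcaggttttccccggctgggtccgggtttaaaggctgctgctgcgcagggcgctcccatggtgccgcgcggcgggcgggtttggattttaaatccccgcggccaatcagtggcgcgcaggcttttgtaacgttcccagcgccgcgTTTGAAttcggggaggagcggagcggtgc
MKI67 and CDC20 each hold 2 matches, and in PLK1 the single match ends 23 bases before the start. A match of so few letters is a description of the sequence and does not show binding.

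Inflammatory genes included some of the largest differences. Of 25 NF-kB and cytokine genes 14 were lower in shCPT-2 and 4 higher (median -0.26). Over the alternatives 7 to 15 were lower, fewest without probe sets that can cross-hybridise, where some members drop out. IL1B, the cytokine interleukin-1 beta, read 11.89, 11.89 and 11.81 in ETX and 9.06, 8.61 and 8.83 in shCPT-2 (-3.03 ± 0.11, 8.19-fold lower, adjusted p = 1.59e-09). Scramble (9.88) was 1.99 under ETX and 1.04 over shCPT-2. PTGS2, the inducible cyclooxygenase, read 9.52, 9.21 and 9.49 against 7.09, 6.79 and 6.97 (-2.46 ± 0.10), with scramble at 7.35. IL6 (-1.45 ± 0.06) and the chemokines CXCL3 (-1.22 ± 0.06) and CXCL8 (-0.83 ± 0.06) were lower. IL24, TNFAIP3, NFKBIZ and NFKBIE were the 4 higher members (0.87, 0.39, 0.22 and 0.14). TLR4, the receptor of bacterial lipopolysaccharide, was lower by -1.86 ± 0.10 on all 4 kept probe sets and also lay on both sides of scramble (1.05 and -0.81).

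Of 35 interferon-stimulated genes 18 were lower and 6 higher (median -0.24). Against scramble the list median was 0.13 in ETX and -0.23 in shCPT-2. Over the alternatives 9 to 21 were lower, fewest without probe sets that can cross-hybridise, where some members drop out. TRIM22 read 8.27, 8.19 and 8.05 in ETX and 5.76, 5.71 and 5.89 in shCPT-2 (-2.38 ± 0.07), and BST2, the tethering factor tetherin, read 8.48, 8.40 and 8.68 against 6.42, 6.69 and 6.17 (-2.09 ± 0.14). The regulator IRF1 (-1.31 ± 0.05) and IFITM1 (-1.22 ± 0.06) were lower, as was HLA-B (-0.41 ± 0.07). The list split within itself: the antiviral effectors IFIT1 (0.58 ± 0.09) and MX1 (0.39 ± 0.05) were higher and ISG15 (0.01) was not called.

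Hypoxia and angiogenic genes differed mainly through shCPT-2. Of 26 measured members 17 were lower and 2 higher (median -0.40). The list median against scramble was 0.02 in ETX and -0.53 in shCPT-2, but 0.28 in shCPT-1. VEGFA, the endothelial growth factor, read 12.20, 12.21 and 12.15 in ETX and 10.18, 9.57 and 9.90 in shCPT-2 (-2.30 ± 0.11, 4.94-fold lower, adjusted p = 1.12e-08), on all 4 of its kept probe sets. Its scramble mean was 12.18, level with ETX, and shCPT-1 had 11.83. The oxygen-regulated factors HIF1A (-1.14 ± 0.08) and EPAS1 (-1.50 ± 0.08) and their target NDRG1 (-1.42 ± 0.09) were lower. HIF1A read 12.84, 12.83 and 12.74 against 11.88, 11.50 and 11.62, and scramble (12.79) lay with ETX. ANGPT1, a ligand of the receptor TIE2, was -2.13 ± 0.09 with shCPT-2 values under the array median, and -1.44 at its weakest over the alternatives. The members called higher were LOX, which crosslinks collagen (0.69 ± 0.04), and ESM1, a proteoglycan made by endothelium and some tumour cells. ESM1 read 8.18, 8.01 and 8.20 in ETX and 9.81, 9.86 and 9.83 in shCPT-2 (1.70 ± 0.07, 3.25-fold higher).

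**Figure D2:**
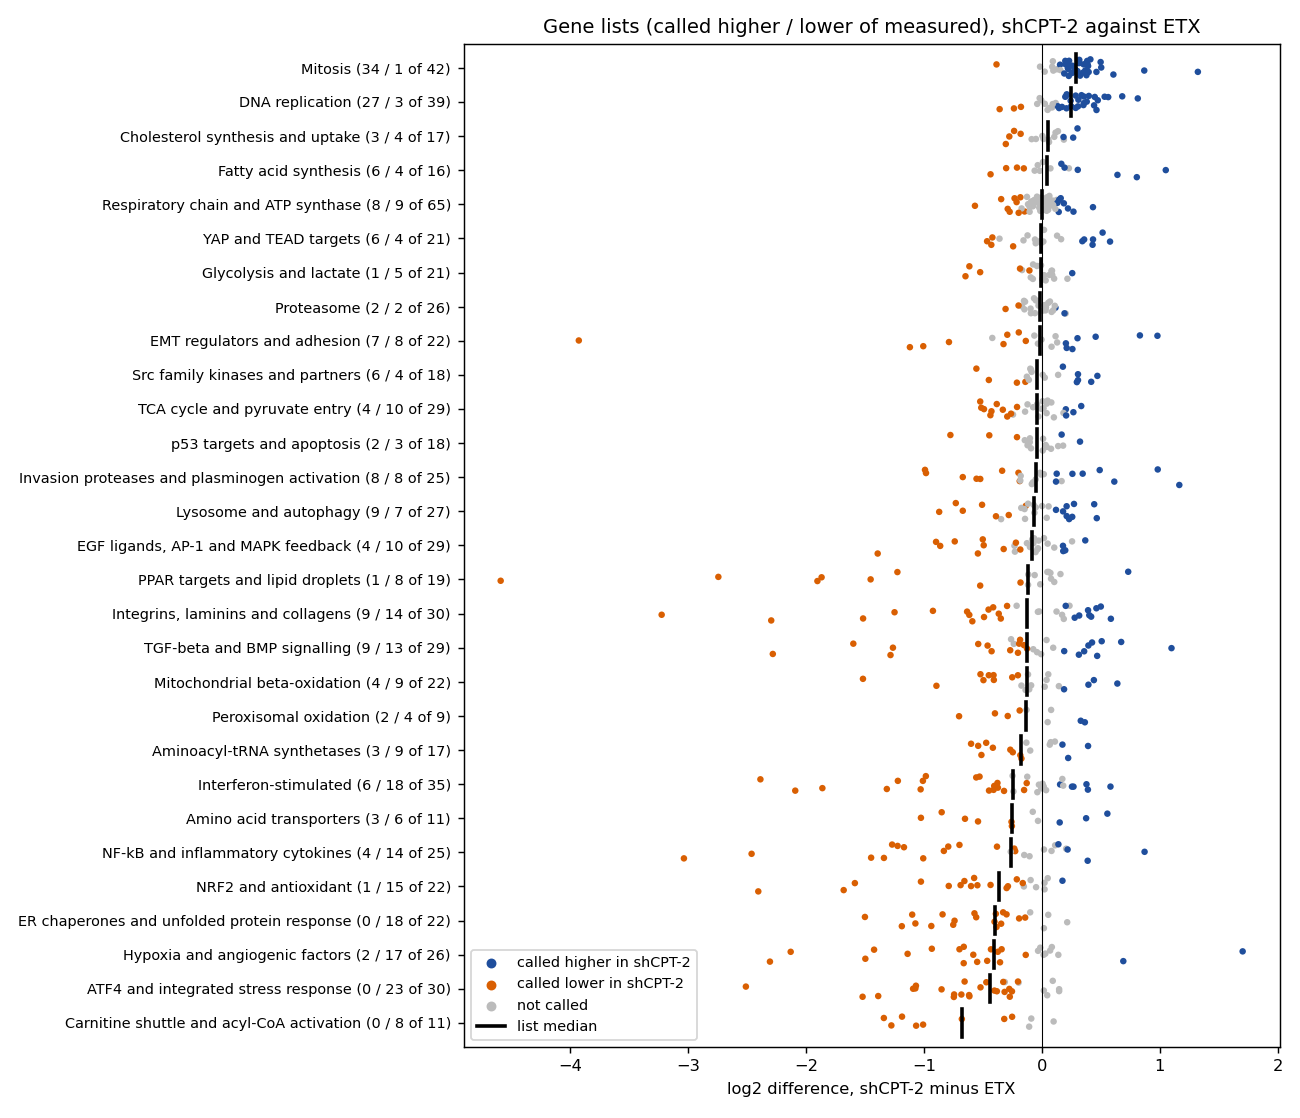
Log2 difference between shCPT-2 and ETX (horizontal axis) for each measured member of 29 gene lists (rows, ordered by median); blue members were called higher in shCPT-2, orange lower, grey not called, and the black bar is the list median. Mitosis and DNA replication lie at the top, with 34 and 27 members called higher, and carnitine shuttle and ATF4 genes at the bottom, with 8 and 23 called lower.

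Set against the scramble arrays that both comparisons share, the lists fell into different positions. For ATF4, ER and NRF2 genes the ETX median lay further from scramble (0.69, 0.33 and 0.28) than the shCPT-2 median (0.10, -0.06 and -0.04). For hypoxia genes the shCPT-2 median lay further. Carnitine shuttle genes stood on both sides, at 0.21 in ETX and -0.23 in shCPT-2. In shCPT-1 the medians of the ATF4, ER, NRF2, hypoxia and carnitine lists against scramble were 0.39, 0.10, -0.11, 0.28 and -0.18. These positions are descriptions, since all these values use the same 3 scramble arrays.

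**Figure D3:**
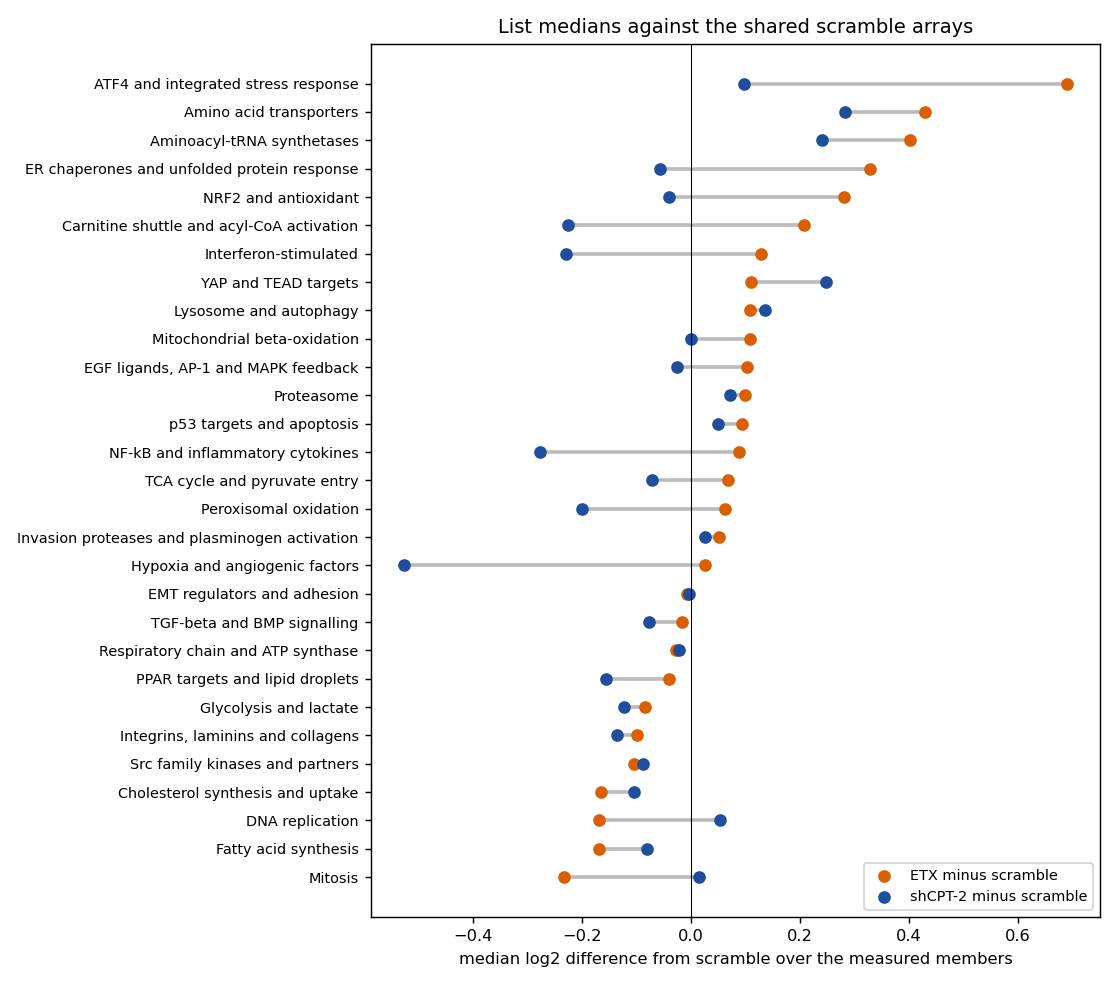
Median log2 difference from scramble over the measured members of 29 gene lists (rows), for ETX (orange) and shCPT-2 (blue). The ATF4 list has the ETX point furthest to the right at 0.69, and the hypoxia list the shCPT-2 point furthest to the left at -0.53.

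The counts of the matrix and signalling lists stand beside 24.9% higher and 20.9% lower over all genes. Integrins, laminins and collagens had 14 of 30 lower and 9 higher (median -0.12). ITGB8, an integrin that activates latent TGF-beta, read 6.80, 6.86 and 6.69 in ETX and 4.66, 4.14 and 4.67 in shCPT-2, the latter under the array median (-2.29 ± 0.12). COL6A3 was lower by -1.51 ± 0.08 and ITGA2 by -1.25 ± 0.12, while the basement membrane collagen COL4A1 was higher (0.59 ± 0.05). COL4A5 had the largest difference (-3.22 ± 0.17), with shCPT-2 values under the array median, and lies in the X run. Invasion proteases and plasminogen activation had 8 of 25 members in each direction (32%; median -0.05). PLAU, urokinase, read 9.71, 9.82 and 9.86 in ETX and 10.79, 10.81 and 10.74 in shCPT-2 (0.98 ± 0.05), level with scramble (10.75). The metalloprotease ADAMTS1 was 1.17 ± 0.09 higher, and its relative ADAMTS12 (-0.99 ± 0.05) and the protease inhibitor SERPINE2 (-0.98 ± 0.04) were lower.

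TGF-beta and BMP signalling had 13 of 29 members lower and 9 higher (median -0.13). The ligand BMP2 read 8.13, 8.08 and 8.18 in ETX and 5.76, 5.76 and 6.02 in shCPT-2 (-2.28 ± 0.11), with scramble at 7.78. The inhibitory SMAD7 (-1.28 ± 0.07) and SMAD6 (-1.60 ± 0.08, or -0.57 as the mean of its 3 probe sets) and the latency protein LTBP1 (-1.26 ± 0.06) were lower. ID3, a target of BMP signalling, was higher (1.10 ± 0.08), as was the antagonist FST (0.67 ± 0.04). EMT regulators and adhesion genes had 8 of 22 lower and 7 higher (median -0.02). EHF, an epithelial ETS factor, read 10.14, 10.12 and 10.06 in ETX and 6.20, 6.11 and 6.23 in shCPT-2 (-3.92 ± 0.06, 15.2-fold lower). Its weakest difference over the alternatives was -2.93. Scramble had 9.84 and shCPT-1 7.83, so both knockdown lines lay under the cells with a scrambled hairpin. Its relative SPDEF (2.01-fold lower, or a log2 difference of -0.45 as the mean of 5 probe sets) and S100A4 (-1.12 ± 0.06) were lower, and the adhesion molecule L1CAM was higher (0.98 ± 0.06, or 0.60 as the mean of its probe sets).

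EGF ligands, AP-1 and MAPK feedback genes had 10 of 29 lower and 4 higher (median -0.08; 2 higher without shCPT-2 replicate 1 and 16 lower with array weights), with the ligand TGFA at -1.39 ± 0.04, IER3 at -0.90 ± 0.04 and the phosphatase DUSP4 at -0.74 ± 0.06. Src family kinases and partners, a pathway that beta-oxidation has been tied to in this cancer type, had 6 of 18 higher and 4 lower (median -0.04). SRC read 7.46, 7.64 and 7.21 in ETX and 7.83, 7.70 and 7.69 in shCPT-2 (0.31 ± 0.10, adjusted p = 0.0246). That call ended as the mean of its probe sets (0.15) and without ETX replicate 3 (0.19), without shCPT-2 replicate 1 (0.26) or without the 4 least correlated arrays (0.21). The relative YES1 (0.31 ± 0.05), the adaptor BCAR1 (0.42 ± 0.06) and CSK, which restrains Src kinases (0.47 ± 0.08), were higher. FYN (-0.45 ± 0.06, but -0.20 and not called without probe sets that can cross-hybridise) and the CSK anchor PAG1 (-0.55 ± 0.05) were lower.

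The 12 largest differences in each direction, among called genes with separate groups and enough signal, included genes outside the lists. ZNF184, a zinc finger gene, read 8.43, 8.32 and 8.33 in ETX and 11.05, 11.01 and 11.12 in shCPT-2 (2.70 ± 0.05, 6.51-fold higher, adjusted p = 1e-11). Scramble (8.05) and shCPT-1 (7.87) lay with ETX, so the CPT2 hairpin line stood alone. The long noncoding RNA AFAP1-AS1 (2.41 ± 0.10), the matrix protein MATN2 (2.02 ± 0.08), SFTA3 (1.80 ± 0.06) and the lung and thyroid factor NKX2-1 (1.69 ± 0.07, or 1.08 as the mean of its probe sets) were higher. For each of these 4 genes shCPT-1 was close to shCPT-2, with means of 8.99, 8.89, 8.96 and 9.34 beside ETX means of 7.11, 7.05, 7.46 and 8.14. LINC02582 (1.77), FBXL16 (1.50), MGC12916 (1.50), the actin-bundling LCP1 (1.45), AHNAK2 (1.35) and the centriole gene CNTROB (1.51) completed the higher set with ESM1. CNTROB was 0.98 as the mean of its probe sets and 0.60 at its weakest over the alternatives. MGC12916 was 0.83 without probe sets that can cross-hybridise.

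In the lower direction, PLCB1, a phospholipase C, read 10.02, 9.94 and 9.90 in ETX and 6.01, 5.62 and 5.93 in shCPT-2 (-4.10 ± 0.12, 17.1-fold lower), with 9.73 in scramble and 6.75 in shCPT-1. SRPX (-2.70 ± 0.07), the kynureninase KYNU (-2.62 ± 0.07) and SHISA2 (-2.32 ± 0.07) were low in both knockdown lines, with shCPT-1 means of 6.50, 9.04 and 9.51 under ETX means of 10.06, 11.09 and 11.63. KYNU was -1.91 at its weakest over the alternatives. MAGEA6, a cancer-testis antigen with near-identical relatives that can share its probes, was lower by -2.48 ± 0.07. The others were PDK4, EHF, IL1B, ANGPTL4, DDIT4, PTGS2 and AKR1C3, described above. A heat map of these 24 genes shows which ones set ETX apart and which ones the knockdown lines.

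**Figure D4:**
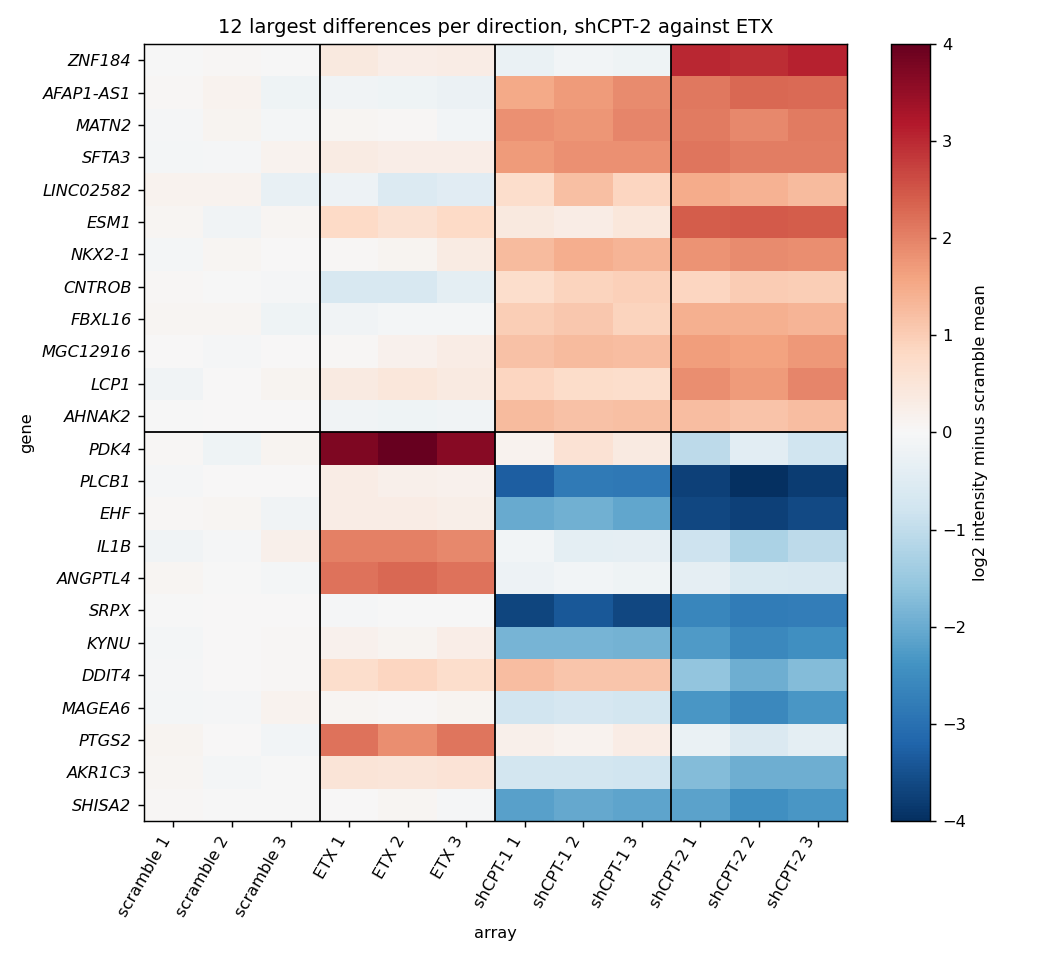
Log2 intensity minus the scramble mean (colour scale) for the 12 genes with the largest differences per direction (rows) on all 12 arrays (columns, by group). PDK4, IL1B, ANGPTL4 and PTGS2 are red in ETX and near 0 or blue elsewhere, whereas PLCB1, EHF, SRPX, KYNU and SHISA2 are blue in both knockdown lines.

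Some genes lay on opposite sides of scramble in the 2 groups, called in both. Higher in shCPT-2 and lower in ETX than scramble were, beside MKI67, ID3, LINC02582 and CNTROB, the protease-related pseudogene AFG3L1P (1.18, or 0.57 as the mean of its probe sets) and DEF6, a guanine nucleotide exchange factor (0.89 ± 0.06). Lower in shCPT-2 and higher in ETX were IL1B, TLR4, PDK4, DDIT4, AKR1C1 and AMPH, which encodes amphiphysin (-1.84 ± 0.12). Others were called on the same side of scramble by unequal amounts. The transporter SLCO4A1 fell by 0.94 in ETX and by 2.62 in shCPT-2, its antisense RNA SLCO4A1-AS1 by 0.47 and 2.04, and COXFA4L3 by 0.31 and 2.12. A gene and its antisense partner may not be told apart by every probe. ENPP1, an ectonucleotide pyrophosphatase, fell by 0.14 and 1.74, WFS1, an ER membrane protein, by 0.14 and 1.71, and FAM133A by 0.46 and 2.67. ZNF184, SFTA3, ESM1, MGC12916, LCP1 and RANGRF were above scramble in both, at 0.31, 0.29, 0.74, 0.17, 0.39 and 0.13 in ETX and at 3.02, 2.09, 2.44, 1.67, 1.84 and 1.39 in shCPT-2.

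The CPT1 hairpin line gave a comparison that shares no arrays with the one above. In shCPT-1 against scramble, 23.1% of all genes were higher and 18% lower. Of the 3203 genes higher in shCPT-2 than in ETX, 38.5% were higher in shCPT-1 than in scramble and 11.4% were lower. Of the 2693 lower genes, 40.3% were lower there and 18.6% were higher. At 2-fold or more the shares were 54 of 63 and 133 of 206. Across the 12886 genes, which are not independent replicates, the differences of these disjoint arrays correlated at r = 0.43 (Spearman rho = 0.25). In distance, 58.6% of the genes higher in shCPT-2 and 58.4% of those lower had a shCPT-1 mean nearer to shCPT-2 than to ETX, beside 56.2% of all genes. For the 2-fold genes this was 41 of 63 and 137 of 206. Both lines carry a hairpin against a gene of the route. The labels do not separate what the hairpin lines share from the knockdown of either enzyme.

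Part of what the knockdown lines shared lay in 3 stretches of neighbouring genes, chosen after their values were seen. They were found by a running median over 15 tested genes in RefSeq order. A stretch was a run of at least 20 genes with this median at least 0.35 from 0 in 1 direction. On chromosome 17, 45 tested genes from DNAH2 to ADORA2B had 32 higher and 2 lower in shCPT-2 than in ETX (median 0.69), and 21 genes from RASD1 to TRIM16L had 16 higher and 2 lower (median 0.51). On the X chromosome, 81 genes from OGT to CHRDL1 had 70 lower and 1 higher (median -0.69). In shCPT-1 against scramble, the same 3 stretches had 34 of 45 higher, 16 of 21 higher and 71 of 81 lower, with medians of 0.73, 0.54 and -0.54. In ETX against scramble the medians were -0.002, -0.07 and 0.11. What sets these stretches apart was not tested. CNTROB, MGC12916, RANGRF, AURKB and SREBF1 lie in the chromosome 17 stretches, and FAM133A, PGK1, COX7B, COL4A5, GLA and ACSL4 in that on the X chromosome. Leaving out the 147 genes of the stretches changed the count of no list by more than 1 member, and the correlation with shCPT-1 against scramble outside them was r = 0.40. Genes beside the stretches shifted too, so this does not remove all of the regional shift. The running median was -0.73 at ZC4H2 on the X chromosome, and -0.46 in shCPT-1 against scramble. Between the chromosome 17 stretches, at TRPV2, these values were 0.29 and 0.53.

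**Figure D5:**
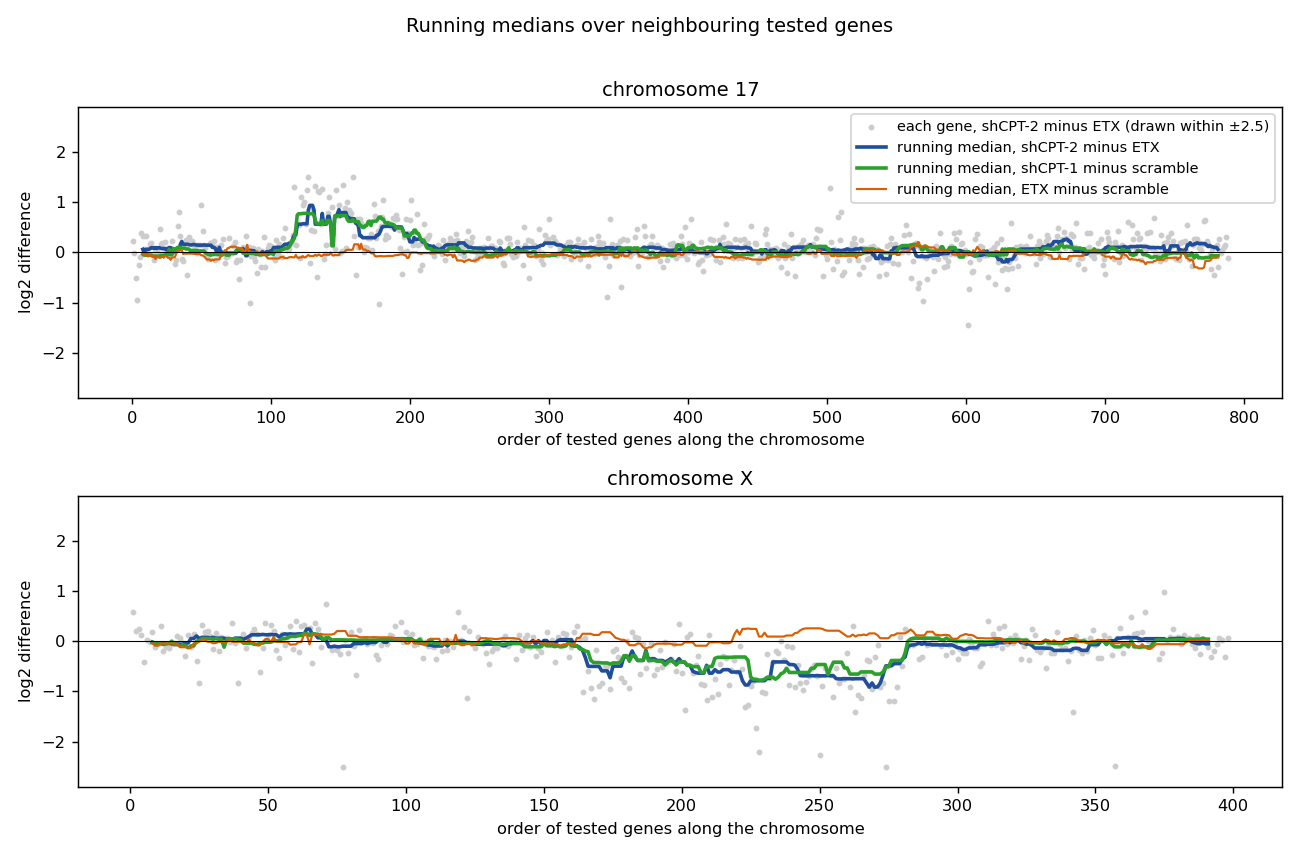
Log2 differences along chromosomes 17 and X, with tested genes in RefSeq order on the horizontal axis. Grey points are single genes and lines are running medians over 15 genes for shCPT-2 minus ETX (blue), shCPT-1 minus scramble (green) and ETX minus scramble (orange). The blue and green lines leave 0 together over the stretches with medians of 0.69, 0.51 and -0.69, while the orange line stays between -0.32 and 0.20 on chromosome 17 and between -0.15 and 0.26 on X.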

How the data were processed

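Total RNA of MDA-MB-231 cells was hybridised to 12 Affymetrix U133 Plus 2.0 arrays, 3 in each of 4 groups assigned by the labels. The authors deposited intensity values on a linear scale, normalized with RMA per the submitters' processing notes; the version is not given in the sources used here. RMA equalises the arrays' distributions, so a shift of all genes would not be seen. From these, log2 was taken. Of 54675 probe sets, 28628 that exceeded the median of an array on 3 or more arrays were kept; 23564 of these carried 1 gene symbol in the platform annotation, and the probe set with the highest mean stood for each of 12886 genes. limma 3.58.1 (R 4.3.3) was fitted with lmFit and eBayes on all 12 arrays, with contrasts between groups, two-sided tests and Benjamini-Hochberg adjustment over all genes; called means adjusted p under 0.05. On simulated data with the comparison's group sizes and 12886 genes, 92 of 100 changes of 0.5 and 100 of 100 changes of 1 (log2) were called, with 9 calls among 12686 unchanged genes. Its noise was independent between genes and arrays, and far fewer genes were changed than were called here. It therefore does not tell how many of the calls here are false. The number of arrays limits the precision. Named were the 12 largest separate differences per direction with the higher mean at or above the median of tested genes; up to 4 members per list by p; 6 genes per direction called on opposite sides, and on the same side, of scramble; and CPT1A, CPT1B, CPT1C, CPT2, SLC25A20 and SRC. Other list members were named after their values were seen. The comparison, the lists and these rules were chosen with earlier results of these data known. Promoters came from RefSeq (GRCh38.p14); 10431 tested genes had one. Replicate numbers were not taken to pair arrays: deviations of same-numbered arrays correlated at -0.21 to 0.12 between ETX and shCPT-2 and at -0.46 to 0.33 over all groups. Alternatives covered filters, probe set choice, normalization, array weights, an actin covariate, a replicate block and leaving out each array; leaving out 4 poorly correlated arrays together was chosen after seeing the data, as were the chromosomal stretches and the comparison of shCPT-1 with scramble.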

Additional observations from a re-analysis of the deposited data

How the results depend on the processing

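The counts of 3203 genes higher and 2693 lower stayed within 1.5 times under most settings tried. They moved further when each probe set was tested on its own (5060 and 4701, from more features) and when a 2-fold difference was also asked for (63 and 206). Leaving out 1 array at a time gave 2740 to 3386 genes higher and 2378 to 2836 lower. With the replicate number as a block the counts were 3105 and 2628. Array weights gave 4289 and 3503, the actin covariate 3581 and 2992, and leaving out the 4 least correlated arrays 3772 and 2991. Of 3793 pairs of a named gene and a setting, 3759 kept direction and side of the threshold, 23 lost the call and 2 gained it. CD3E and TEK, called nowhere, changed sign near 0 in 8 pairs, and 1 called value reversed: ACAA2 was 0.15 without probe sets that can cross-hybridise, and the cause was not tested. PSMB3 and PDGFRB lost their calls in several settings. Lists and named genes were not followed for each probe set on its own or with the 2-fold requirement, here or above. Over the other settings 16 to 24 ATF4 genes and 13 to 19 ER genes were lower. In mitosis 24 to 38 genes and in replication 19 to 30 genes were higher. Each lowest count came without probe sets that can cross-hybridise, where members with no other probe set drop out. Without shCPT-2 replicate 1 the peroxisomal list had 1 member higher. Without the 4 least correlated arrays 6 cholesterol, 7 TCA and 3 glycolysis genes were higher. Where a group's signal lay under the array median, the size of a fold is less certain.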

Other observations

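Over all genes 24.9% were called higher and 20.9% lower, and the YAP and TEAD list lay near those shares. Of 21 YAP and TEAD targets 6 were higher in shCPT-2 than in ETX and 4 lower (median -0.01). The coagulation initiator F3 was 0.58 ± 0.06 higher (limma, SE, n = 3 per group), ANKRD1 0.52 ± 0.06, FJX1 0.43 ± 0.05 and AMOTL2 0.43 ± 0.06. Of 18 p53 targets and apoptosis genes 3 were lower and 2 higher (median -0.04; 1 higher without ETX replicate 1 or 3 or shCPT-2 replicate 1 or 3). CDKN1A, the cyclin-dependent kinase inhibitor p21, was lower by -0.45 ± 0.05 and TP53INP1 by -0.77 ± 0.13. The nuclease AEN was 0.32 ± 0.08 higher and the DNA damage sensor XPC lower (-0.21 ± 0.05).

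Of 27 lysosome and autophagy genes 9 were higher and 7 lower (median -0.06), beside 24.9% higher and 20.9% lower over all genes. Beta-glucuronidase GUSB (0.47 ± 0.05) and MAP1LC3B (0.44 ± 0.04, or 0.22 as the mean of its probe sets) were higher, and WIPI1, which binds early autophagic membranes, was lower (-0.73 ± 0.06). GLA (-0.87 ± 0.04), alpha-galactosidase, lies in the X-linked stretch. Of 26 proteasome genes 22 were not called, 2 were higher and 2 lower (median -0.01; 4 lower without scramble replicate 3, and 1 higher without scramble replicate 2, ETX replicate 1, shCPT-1 replicate 2 or shCPT-2 replicate 2 or 3), with PSMD14 at -0.31 ± 0.04, PSMB1 at -0.20 ± 0.04 and PSMD2 at 0.19 ± 0.04.

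Marker counts stand beside 24.9% higher and 20.9% lower over all genes. The mesenchymal higher share (22.2%), the luminal lower share (22.2%) and the endothelial higher share (25%) lay near these. Among the cell type marker lists, 4 of 9 measured mesenchymal genes were lower and 2 higher, with SPARC at -0.77 ± 0.10 and TGFBI at 0.51 ± 0.04. Of 9 luminal genes 4 were higher (2 without shCPT-2 replicate 2) and 2 lower, and keratin KRT19 (0.46 ± 0.05) and AGR2 (-1.20 ± 0.12) went opposite ways. The leukocyte gene that passed the filter, CD3E, was not called (0.01). Of 4 endothelial genes 2 were lower and 1 higher, with the VEGF receptor KDR at -0.83 ± 0.11. Of 3 fibroblast genes 1 was lower, PDGFRB at -0.33 ± 0.11, and this call ended without ETX replicate 1, ETX replicate 3, shCPT-2 replicate 1 or shCPT-2 replicate 3.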
